A study of Homo sapiens with 6 samples.

Results

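Well-expressed antisense transcripts of SEM cells were described in total RNA-seq of cells with wild-type CTCF and cells with CTCF lacking its RNA-binding region. The transcripts were the genes that the deposited table types as antisense, chosen by their mean level over the 6 libraries, which had to be at least 3 CPM (the count scaled to a fixed library total). Levels in CPM of single genes by library or group are further scaled by TMM normalization. The threshold, the filter at 1 CPM, the marker levels and the counts of transcripts by mean level are not. Of 57820 genes in the table, 5276 were typed as antisense, 156 of them reached the level, and 5 were left out by name (ZFAS1, SNHG12, SNHG7, SNHG10 and KCNQ1OT1), so 151 were kept. Just inside the threshold were KTN1-AS1 (3.01 CPM), AC005329.7 (3.02 CPM) and RAB11B-AS1 (3.03 CPM), and just outside it were WASIR2 (2.98 CPM), XXbac-BPG299F13.17 (2.96 CPM) and RP3-455J7.4 (2.92 CPM). The rule used the mean over all libraries, not the difference between the groups.

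SEM, an established human line of B-cell acute lymphoblastic leukemia, was used throughout, and in both groups its endogenous CTCF carries a miniAID-mClover3 tag and OsTIR1 is expressed, so that the auxin analog 5-Ph-IAA directs the tagged protein to degradation. The 3 CTCF-WT libraries carry the genotype label CTCF-miniAID-mClover3, which names no transgene, although the methods give these cells an inducible wild-type HA-tagged CTCF. The 3 CTCF-dRBR libraries carry the added label TRE3G-HA-CTCF-dRBR, a doxycycline-inducible HA-tagged CTCF without the RNA-binding region. Exposure to 5-Ph-IAA lasted 24 h in all groups, the last 18 h together with doxycycline. Both lines were derived by transduction, nothing in the sources used here names separate cultures, and p-values therefore measure the spread between these libraries, which may be technical.

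Library totals were between 51732177 and 53166735 counts in CTCF-WT and between 30034505 and 50457168 in CTCF-dRBR, and the smallest was CTCF-dRBR replicate 1. That library stood apart, with an estimated quality weight of 0.0969 against 0.472 to 6.19 in the other 5 libraries. Of 10 B-lineage markers 9 were at 1 CPM or more, with summed levels of 946 to 1043 CPM in CTCF-WT and 627 to 1115 CPM in CTCF-dRBR. Of the T cell markers 1 of 5 (TRAC) reached 1 CPM and CD3D was at 0, of the myeloid markers 2 of 5 did and ELANE was at 0, and of the erythroid and stromal markers 0 of 4 each did. CTCF itself was at 210, 211 and 249 CPM in CTCF-WT and at 273, 264 and 252 CPM in CTCF-dRBR, counts in which endogenous and induced CTCF were not separated (log2 fold change 0.24 ± 0.10 SE, adjusted p = 0.202 by limma-voom).

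An antisense transcript is made from the strand opposite to another gene. Many start at the same CpG-rich promoter as a protein-coding gene and run away from it (divergent transcripts), while others run back through its exons or introns. Many are long noncoding RNAs that the nuclear exosome keeps at low levels, and a few are known to act on the gene they face. CTCF binds DNA at promoters, enhancers and domain borders. It has also been reported to bind RNA, through the region that CTCF-dRBR lacks among others. The authors describe its RNA binding in cells as still debated.

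The label antisense held only in part. In a Gencode annotation lifted to GRCh37, 144 of the 151 were found, 134 of them as lncRNA and 6 as protein-coding genes, among them TUG1 and AC025335.1, now named RNF227. The set held small structural RNAs, namely RN7SL1, the RNA of the signal recognition particle, RPPH1, the RNA of ribonuclease P, and SCARNA9, a guide RNA of Cajal bodies. RN7SL1 has near-identical copies that share reads, so its count is uncertain. By position, 72 had their start within 1 kb of the start of a protein-coding gene on the other strand, 57 overlapped exons of such a gene without a near start, 9 lay in introns only, 6 overlapped none, and 7 were not in the annotation. Among the 151, 20 transcripts now bear a name ending in -DT, for divergent transcript.

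The starts that lie close together can be read in the promoter sequences. RefSeq windows of 300 bases around the start on GRCh38.p14 were found for 92 of the 151. In 55 cases the neighboring gene had a window too, and in 36 of these the windows shared bases, with a median of 120. Windows are shown for WT1-AS, which had the smallest p of all members, and for UBL7-AS1 and UBA6-AS1, whose ratio to the gene across the promoter differed in opposite directions between the groups. Each is given 5′ to 3′ on the strand of the antisense transcript, and capitals mark the bases that also lie in the window of WT1, UBL7 or UBA6.
WT1-AS (chr11:32435268-32435567, plus strand): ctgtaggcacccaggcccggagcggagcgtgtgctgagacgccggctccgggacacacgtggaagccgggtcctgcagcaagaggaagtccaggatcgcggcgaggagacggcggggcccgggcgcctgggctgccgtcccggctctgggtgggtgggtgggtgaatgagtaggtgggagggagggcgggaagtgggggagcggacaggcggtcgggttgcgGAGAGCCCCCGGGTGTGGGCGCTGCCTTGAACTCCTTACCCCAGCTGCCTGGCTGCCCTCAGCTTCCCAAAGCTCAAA
UBL7-AS1 (chr15:74461015-74461314, plus strand): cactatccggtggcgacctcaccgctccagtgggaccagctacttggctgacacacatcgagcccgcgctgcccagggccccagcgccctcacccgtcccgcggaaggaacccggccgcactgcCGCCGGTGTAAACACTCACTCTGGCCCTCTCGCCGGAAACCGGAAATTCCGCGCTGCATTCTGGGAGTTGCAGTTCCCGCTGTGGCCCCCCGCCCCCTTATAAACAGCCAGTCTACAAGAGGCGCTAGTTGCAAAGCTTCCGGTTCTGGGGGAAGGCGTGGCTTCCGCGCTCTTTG
UBA6-AS1 (chr4:67701028-67701327, plus strand): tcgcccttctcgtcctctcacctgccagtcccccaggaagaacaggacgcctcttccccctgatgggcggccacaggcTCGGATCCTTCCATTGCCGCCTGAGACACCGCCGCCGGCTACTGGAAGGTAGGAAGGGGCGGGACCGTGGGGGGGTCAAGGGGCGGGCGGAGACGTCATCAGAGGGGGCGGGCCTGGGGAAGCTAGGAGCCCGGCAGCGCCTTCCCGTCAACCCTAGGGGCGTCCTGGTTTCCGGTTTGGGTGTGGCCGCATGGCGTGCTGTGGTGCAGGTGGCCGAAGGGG
The shared stretches were 78, 176 and 222 bases long, with the start of the antisense transcript inside each. The window of UBL7-AS1 held 1 match to TATAAA, the TATA box, searched on both strands, and those of WT1-AS and UBA6-AS1 held 0. Over the set, 6 of 92 windows held it (6.52%), against 11.5% of all 35116 windows of the table. The median GC content of the windows was 66.7% against 58.7% in all windows, and their median number of CpG dinucleotides was 27 against 14. A simplified core of the CTCF motif, searched on both strands, was found in 15 of 92 windows (16.3%), against 10.6% of all windows, with 1 match each for WT1-AS and UBA6-AS1 and 0 for UBL7-AS1. A match to such letters is a description and not a bound site.

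Levels ranged widely. RN7SL1 alone held between 0.339% and 3.27% of all counts of a library and RPPH1 between 0.0684% and 1.07%, while all other members together held between 0.173% and 0.207%. Beyond these, FGD5-AS1 (174 ± 13 CPM in CTCF-WT, SD, n = 3), TUG1 (116 ± 5.9 CPM) and AC002454.1 (101 ± 2.2 CPM), now named CDK6-AS1 for the cell cycle kinase gene CDK6 it starts beside, were above 100 CPM. THAP9-AS1, RP11-349A22.5 (PSMA3-AS1) and GS1-251I9.4 (OTUD6B-AS1) followed at 78.1 ± 6.3, 65.0 ± 1.6 and 57.9 ± 3.4 CPM in CTCF-WT. Only 42 of the 151 had a mean of 10 CPM or more and 64 were under 5 CPM. Per length, in the deposited TPM, the median transcript was at 3.40 TPM and the median gene tested at 8.25 TPM. On that scale the short AC002454.1 stood at 269 TPM, well above FGD5-AS1 (45.5 TPM) and TUG1 (20.0 TPM).

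The main question was whether these transcripts differ between cells with CTCF-dRBR and cells with CTCF-WT. None passed an adjusted p of 0.05 in limma-voom (Benjamini-Hochberg over 14044 genes, of which 0 passed, a background of 0%), and edgeR's quasi-likelihood test also called 0. DESeq2 called 9 of the 151, against 11.5% of all genes. Quality weights gave 86 (68.2% of all genes), removal of the GC trend 4 (9.24%), and limma-trend on deposited TPM 4 with a pseudocount of 1 (5.93%) and 5 with one of 0.1 (5.41%). At an unadjusted p under 0.05 limma-voom gave 24 and edgeR 26 (24.6% of all genes). The 24 of limma-voom (15.9%) were 16 higher and 8 lower in CTCF-dRBR, against 25.4% of all genes tested (12.6% higher and 12.8% lower). Levels did not overlap between the groups for 62 transcripts (41.1%), against 37.5% of all genes, with 39 higher (20.0% of all genes were) and 23 lower (17.5% of all genes were). This split depended on the scaling, since it was 49 higher and 17 lower with no normalization beyond library size (21.6% and 14.5% of all genes), 44 and 16 with upper quartile normalization (22.6% and 15.6%), and 36 and 1 in the deposited TPM (13.1% and 2.26%). With the GC trend removed it was 28 and 21 of 144 transcripts (17.7% and 21.7% of all genes). Their share without overlap was then 34.0%, against 39.4% of all genes. Only 3 transcripts differed more than 2-fold, RN7SL1, RPPH1 and MIR142, all lower in CTCF-dRBR and all overlapping between the groups, against 7.75% of all genes.

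Most differences were small. The median log2 fold change was 0.08 over the 151 and −0.01 over all genes tested, 5% of the transcripts were below −0.76 and 5% above 0.56, and the median absolute value was 0.25 against a median SE of 0.18. Transcripts that start within 1 kb of a protein-coding gene had a median of 0.11, those overlapping exons 0.05, those in introns only 0.04, and the 6 that overlap none −0.32. Those 6 include SCARNA9, MIR142 and the protein-coding AC025335.1. Median GC content differed between these classes, from 40.2% in introns only to 51.0% with no overlap. Without RN7SL1, RPPH1 and SCARNA9 the median log2 fold change was 0.08 and the count without overlap was 61 of 148. For the 144 with a GC content it was −0.00042 with the GC trend removed.

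CTCF-dRBR replicate 1 carried much of the spread. The SD of the transcripts' deviations from their mean was 0.55 on the log2 scale in that library and between 0.15 and 0.31 in the other 5, and that library held the highest level for 64 transcripts and the lowest for 45. The spread was not particular to these transcripts, since over all genes the SD was 0.70 there and 0.18 to 0.39 in the other 5. Deviations in CTCF-dRBR replicate 1 followed GC content (Spearman rho −0.57 over the transcripts with a GC content and −0.79 over all genes, both across genes, which are not independent replicates), whereas CTCF-WT replicate 1 deviated the other way (0.51 and 0.71). Over all genes, rho was 0.68 and 0.33 in CTCF-WT replicates 2 and 3, and −0.44 and 0.51 in CTCF-dRBR replicates 2 and 3. The trend thus ran in part along the groups. These deviations are from a mean that includes CTCF-dRBR replicate 1, and rho was not computed with that library left out. Whether this trend took part in single differences was not tested beyond refitting with the trend removed or the library left out. Without CTCF-dRBR replicate 1, 1 transcript (WT1-AS) passed an adjusted p of 0.05 in limma-voom, against a background of 3.90% of genes. In the same libraries edgeR called 1 (4.09% of genes), DESeq2 10 (17.4%), and limma-voom after removal of the GC trend 15 (23.6%).

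**Figure D1:**
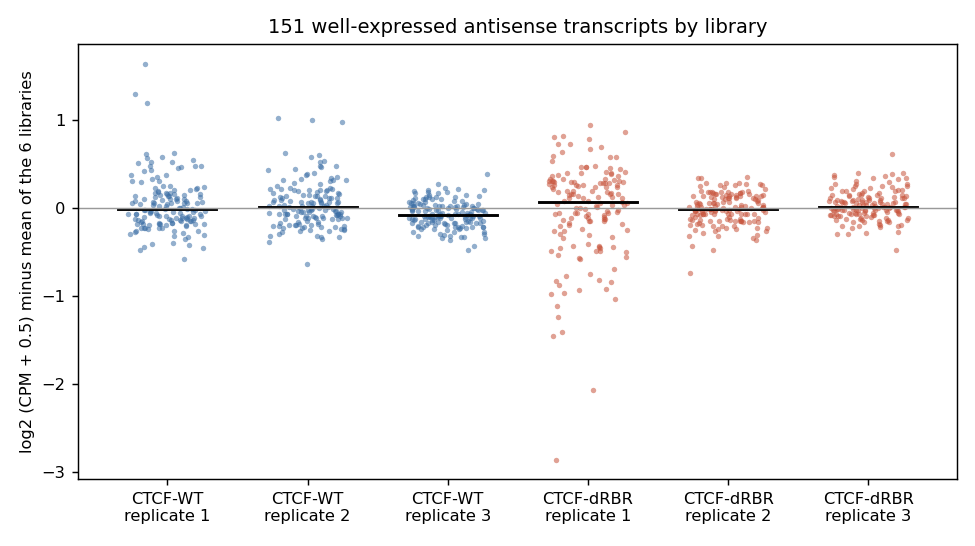
Deviation of each of the 151 transcripts from its mean over the 6 libraries, on the log2 (CPM + 0.5) scale, 1 point per transcript and library with the median as a black bar. The points of CTCF-dRBR replicate 1 (SD 0.55) spread more widely than those of the other libraries (SD 0.15 to 0.31), and the medians lie near 0 in all 6.

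Among the transcripts higher in CTCF-dRBR, WT1-AS had the smallest p. It is an antisense transcript of WT1, a zinc finger transcription factor gene often expressed in acute leukemia, and starts 46 bases from the start of WT1 (GRCh37, chr11:32457064-32522178). WT1-AS was at 6.42, 6.60 and 5.53 CPM in CTCF-WT and at 10.5, 9.67 and 10.4 CPM in CTCF-dRBR. The lowest CTCF-dRBR library exceeded the highest CTCF-WT library, and the log2 fold change was 0.72 ± 0.14 (SE, adjusted p = 0.105, limma-voom). The adjusted p was 0.0463 without CTCF-dRBR replicate 1, 0.0220 after removal of the GC trend and 0.000112 by DESeq2, and over the alternatives other than quality weights it reached 0.482 at most and was under 0.05 in 8 of 20. Among these are the combinations without CTCF-dRBR replicate 1 that were chosen after seeing the data, all of them under 0.05. In the deposited TPM the values were 1.41, 1.70 and 1.97 in CTCF-WT and 3.80, 4.57 and 3.78 in CTCF-dRBR, also without overlap.

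ENSG00000255031 overlaps 631 exonic bases of CHKA, the gene of choline kinase alpha, on the other strand. It was at 2.89, 3.55 and 3.44 CPM in CTCF-WT and at 8.19, 5.40 and 5.61 CPM in CTCF-dRBR (log2 fold change 0.92 ± 0.21 SE, adjusted p = 0.118, limma-voom). CHKA itself was at 32.3, 33.2 and 33.5 CPM and then 29.0, 34.7 and 36.5 CPM, so only the antisense levels were apart. CDKN2B-AS1, also called ANRIL, lies antisense to the cell cycle inhibitor gene CDKN2B at the INK4 locus. It was at 4.64, 5.07 and 5.96 CPM in CTCF-WT and at 9.93, 7.16 and 7.36 CPM in CTCF-dRBR (log2 fold change 0.62 ± 0.19 SE, adjusted p = 0.151, limma-voom). CDKN2B was under the filter, with 0.09 to 0.26 TPM in the 6 libraries. With the GC trend removed, the log2 fold change of CDKN2B-AS1 was 0.34.

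RP11-20I23.13 lies in an intron of PDPK1, the gene of a kinase that activates AKT. It was at 4.30, 3.78 and 3.74 CPM in CTCF-WT and 6.49, 5.27 and 5.67 CPM in CTCF-dRBR (log2 fold change 0.55 ± 0.16 SE, adjusted p = 0.142, limma-voom), while PDPK1 levels overlapped between the groups (log2 fold change −0.12 ± 0.12 SE).

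Among the transcripts lower in CTCF-dRBR, AC025335.1 (RNF227, now annotated as a protein-coding RING finger gene) had the smallest p, at 14.2, 15.5 and 12.5 CPM in CTCF-WT and 7.49, 9.69 and 9.996 CPM in CTCF-dRBR (log2 fold change −0.63 ± 0.17 SE, adjusted p = 0.139, limma-voom). PINK1-AS shares 1907 exonic bases with PINK1, the gene of a mitochondrial kinase. It was at 15.1, 15.6 and 14.5 CPM in CTCF-WT and 11.6, 11.5 and 12.2 CPM in CTCF-dRBR (log2 fold change −0.36 ± 0.12 SE, adjusted p = 0.158, limma-voom). PINK1 was at 10.3, 10.9 and 7.70 CPM and then 5.88, 10.5 and 13.2 CPM, with overlap. On log2(TPM + 1) in limma-trend PINK1-AS stood at 0.12 and the median gene at 0.40, so its difference was negative only relative to that median.

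SCARNA9 was at 40.5, 29.1 and 28.1 CPM in CTCF-WT and 24.7, 21.6 and 21.9 CPM in CTCF-dRBR (log2 fold change −0.51 ± 0.18 SE, adjusted p = 0.166, limma-voom). PXN-AS1 overlaps the paxillin gene PXN and starts 39 bases from RPLP0, a ribosomal protein gene. Its levels of 15.6, 15.4 and 12.6 CPM in CTCF-WT lay above those of 6.05, 10.1 and 11.1 CPM in CTCF-dRBR (log2 fold change −0.70 ± 0.25 SE, adjusted p = 0.168, limma-voom). The lowest value was that of CTCF-dRBR replicate 1, and the log2 fold change without it was −0.46. RPLP0 had its lowest level in the same library, 1098 CPM against 2173 to 2764 CPM in the other 5. The row MIR142 counts the host transcript of the hematopoietic microRNA miR-142 and not the mature microRNA. It was at 26.6, 16.9 and 6.43 CPM in CTCF-WT and 2.78, 4.73 and 7.38 CPM in CTCF-dRBR. The groups overlapped, since CTCF-WT replicate 3 was below CTCF-dRBR replicate 3, and the log2 fold change of −1.58 ± 0.61 (SE, adjusted p = 0.186, limma-voom) was −0.77 with the GC trend removed.

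**Figure D2:**
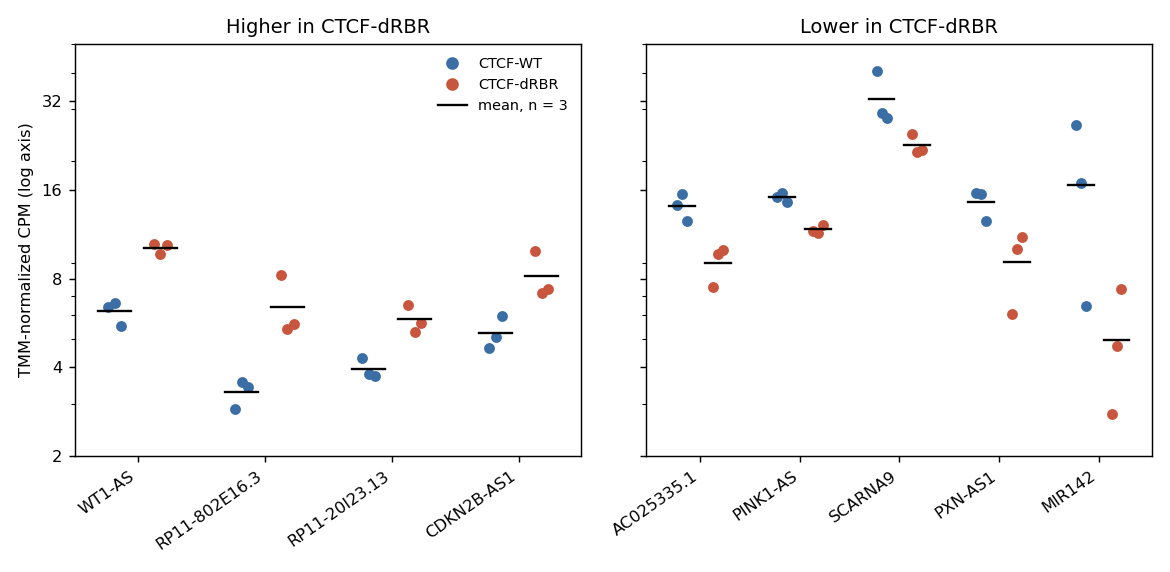
TMM-normalized CPM (log axis) of 4 of the 5 transcripts with the smallest p among those higher in CTCF-dRBR and of the 5 among those lower, 1 point per library (blue CTCF-WT, red CTCF-dRBR) and group means as bars (n = 3). ENSG00000255031 is the second from the left, under its clone-based symbol. The groups are apart for all but MIR142, whose CTCF-WT libraries run from 6.43 to 26.6 CPM.

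The most abundant transcripts did not pass the adjusted test. RN7SL1 was at 35070, 28118 and 12262 CPM in CTCF-WT and 3399, 11047 and 18716 CPM in CTCF-dRBR, and RPPH1 was at 11441, 10110 and 6494 CPM and then 687, 3948 and 7624 CPM. Both overlapped between the groups and were lowest in CTCF-dRBR replicate 1 (log2 fold change −1.37 ± 0.69 and −1.73 ± 0.85 SE, adjusted p = 0.234 and 0.230, limma-voom). Without that library the log2 fold changes of RN7SL1 and RPPH1 were −0.68 and −0.73, both under 2-fold. In the deposited TPM, RN7SL1 was at 116468 TPM in CTCF-WT replicate 1 and 18343 TPM in CTCF-dRBR replicate 1. FGD5-AS1, at 161, 174 and 188 CPM in CTCF-WT and 183, 197 and 174 CPM in CTCF-dRBR, showed overlapping groups (log2 fold change 0.09 ± 0.10 SE). TUG1, which takes part in gene silencing by Polycomb proteins, was at 123, 115 and 111 CPM and then 111, 109 and 95.5 CPM, narrowly without overlap (log2 fold change −0.15 ± 0.10 SE, adjusted p = 0.330, limma-voom, and 0.34 in limma-trend on log2(TPM + 1)). The median gene was at 0.40 on that last scale. MORC2, a silencing factor gene that starts 471 bases away on the other strand, was at 26.2, 24.7 and 24.5 CPM and then 18.7, 19.5 and 20.7 CPM (log2 fold change −0.35 ± 0.11 SE, adjusted p = 0.152, limma-voom).

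AC002454.1 levels were 99.9, 100.0 and 104 CPM in CTCF-WT and 121, 102 and 106 CPM in CTCF-dRBR, with overlap (log2 fold change 0.11 ± 0.10 SE). CDK6, whose start is 206 bases away, was at 1366, 1429 and 1423 CPM and then 1876, 1754 and 1588 CPM, higher in all CTCF-dRBR libraries but not past the adjusted test (log2 fold change 0.30 ± 0.09 SE, adjusted p = 0.152, limma-voom). THAP9-AS1 and GS1-251I9.4 had log2 fold changes of 0.22 ± 0.16 and 0.30 ± 0.27 (SE), both drawn up by CTCF-dRBR replicate 1, without which they were 0.05 and −0.00. RP11-349A22.5 was at 66.5, 63.4 and 65.2 CPM and then 91.7, 71.8 and 71.9 CPM (log2 fold change 0.25 ± 0.12 SE, adjusted p = 0.228, limma-voom), and with the GC trend removed the value was 0.01.

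Of the well-known transcripts listed by name, SETD5-AS1, now THUMPD3-AS1, was at 40.3, 42.5 and 43.6 CPM in CTCF-WT and 43.8, 55.3 and 49.5 CPM in CTCF-dRBR (log2 fold change 0.24 ± 0.12 SE, adjusted p = 0.231, limma-voom, and −0.01 with the GC trend removed). CD27-AS1, antisense to the lymphocyte receptor gene CD27, was at 12.1, 9.82 and 8.74 CPM and then 5.62, 8.18 and 8.42 CPM (log2 fold change −0.46 ± 0.22 SE, adjusted p = 0.222, limma-voom, −0.29 without CTCF-dRBR replicate 1, and 0.01 in limma-trend on log2(TPM + 1)). On that last scale the median gene was at 0.40. CD27 itself was between 0 and 0.02 TPM. HOXA-AS4, now HOXA10-AS, overlaps 608 exonic bases of HOXA9, a gene high in leukemia with KMT2A fusions. It was at 2.91, 2.94 and 4.38 CPM and then 4.75, 3.49 and 3.12 CPM, with overlap (log2 fold change 0.13 ± 0.25 SE, and −0.03 without CTCF-dRBR replicate 1).

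Symbols of 54 transcripts name a sense gene, and 46 of these genes passed the filter. The other 8 (FGD5, NUTM2A, CD27, CDKN2B, SH3BP5, MMP24, ASB16 and CKMT2) were at 0.26 TPM or less in every library, although their antisense transcripts were at 3 CPM or more. In 45 of the 46 pairs both genes were in the annotation, all 45 on opposite strands. Their starts were within 1 kb in 23, their exons overlapped in 33, and their spans did not overlap in 8. The counts are called stranded in the table's name, but how the counting used the strand is not given in the sources used here. Where exons overlap, reads of the sense gene counted for its antisense partner cannot be told apart.

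Levels of antisense and sense were far apart in most pairs. Per length, in TPM, the antisense transcript was below its sense gene in all 6 libraries in 29 pairs, above it in all 6 in 12 and mixed in 5, with a median ratio of 0.225. Its share of the pair's counts ran from 0.247% for TPT1-AS1, whose partner encodes the abundant translationally controlled tumor protein, to 83.3% for SDCBP2-AS1. THAP9-AS1 was at 49.8 TPM against 5.03 TPM for THAP9, a gene derived from a transposase, PXN-AS1 was at 11.7 TPM against 1.16 TPM for PXN, and ENTPD1-AS1 was at 14.1 TPM against 0.848 TPM for ENTPD1. At the other end, TPT1-AS1 was at 4.28 TPM against 2792 TPM for TPT1, and PAN3-AS1, itself among the most abundant at 36.0 TPM, faced 876 TPM of PAN3.

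**Figure D3:**
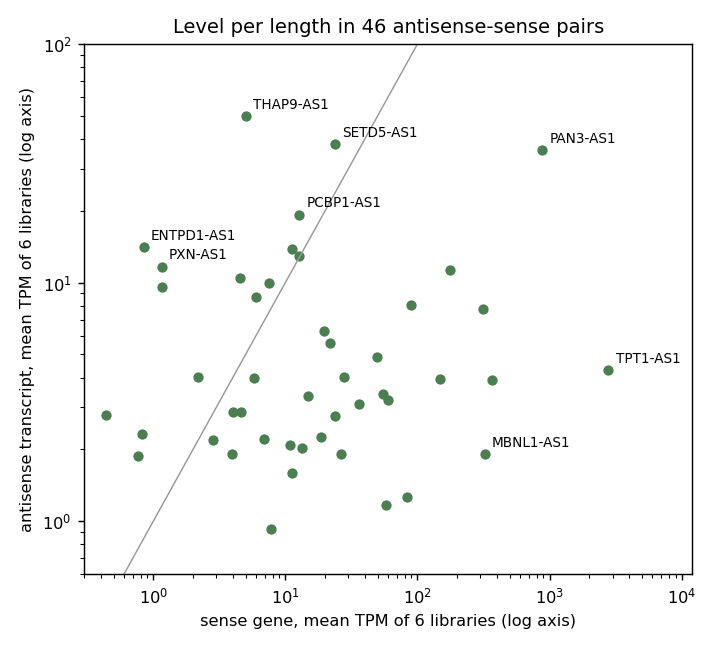
Mean TPM over 6 libraries of the antisense transcript against that of its sense gene in 46 pairs, both on log axes, 1 point per pair, with the line of equal level. Most points lie below the line (antisense below sense in all libraries in 29 pairs), and THAP9-AS1, ENTPD1-AS1 and PXN-AS1 lie far above it.

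Among the 46 sense genes, 0 passed an adjusted p of 0.05 in limma-voom or in edgeR's quasi-likelihood test, 10 were at an unadjusted p under 0.05 (21.7%, 4 higher and 6 lower, against 25.4% of all genes), DESeq2 called 5 (11.5% of all genes), and the median log2 fold change was 0.06. Without CTCF-dRBR replicate 1, limma-voom called 3 (3.90% of all genes). The fold changes of antisense and sense had the same sign in 30 pairs (18 higher and 12 lower), and in 16 they differed, with the antisense higher and the sense lower in 7 and the reverse in 9. Across the 46 pairs the fold changes had a Pearson r of 0.41 and a Spearman rho of 0.30, a description over genes that share the same 6 libraries, their depth and often their GC content.

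**Figure D4:**
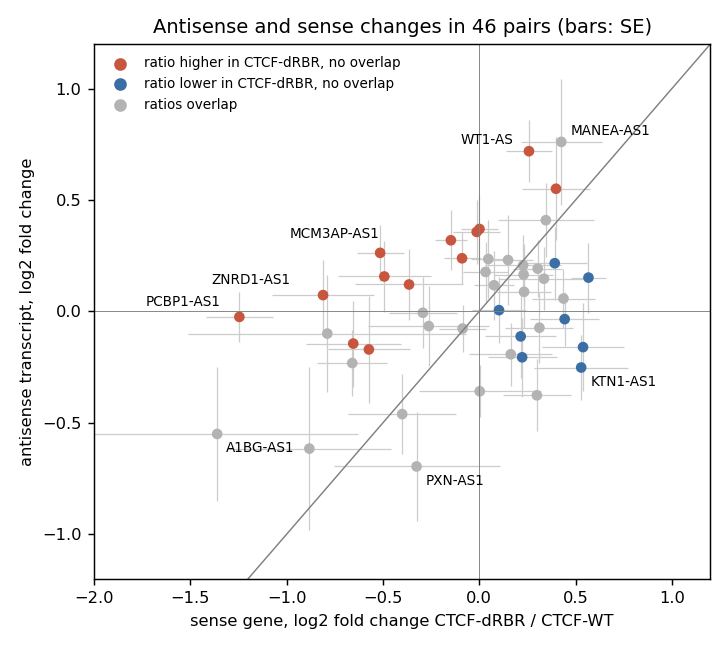
Log2 fold change (CTCF-dRBR against CTCF-WT, limma-voom) of the antisense transcript against that of the sense gene in 46 pairs, with SE bars. The line marks equal change. Red points have an antisense to sense ratio higher in all 3 CTCF-dRBR libraries (13 pairs), blue points one lower in all 3 (8 pairs), and PCBP1-AS1 lies farthest from the line, with its sense gene at −1.25.

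The ratio of the antisense to the sense count within a library does not depend on the scaling of libraries. It did not overlap between the groups in 21 of 46 pairs (45.7%), 13 with a higher ratio in CTCF-dRBR and 8 with a lower one, against 33.3% of the 99 pairs of any tested antisense gene, which include these 46 (17.2% higher and 16.2% lower). With 3 libraries against 3 the smallest p of an exact two-sided permutation test is 0.1. Each of these 21 pairs had that p, which ratios without overlap always give, so it adds nothing to the separation itself. The median change of the log2 ratio was 0.07, against 0.05 over the 99 pairs, the range was from −0.77 to 1.24, and 1 pair moved more than 2-fold. Of the pairs whose exons overlap 14 of 33 had no overlap of ratios, and of those whose exons do not overlap 6 of 12.

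PCBP1-AS1 and PCBP1 were that pair. PCBP1 is an intronless gene of a poly(C)-binding protein that acts in splicing and mRNA stability, and PCBP1-AS1 (GRCh37, chr2:70187236-70330352) shares 1264 exonic bases with it. The log2 ratio was −1.10, −0.91 and −0.70 in CTCF-WT and 0.55, 0.38 and 0.07 in CTCF-dRBR, a change of 1.24. The antisense levels stayed between 21.6 and 24.4 CPM in all 6 libraries (log2 fold change −0.02 ± 0.11 SE). PCBP1 was at 47.7, 45.8 and 38.7 CPM in CTCF-WT and 14.7, 18.5 and 22.2 CPM in CTCF-dRBR (log2 fold change −1.25 ± 0.18 SE, adjusted p = 0.0959, limma-voom). The ratio still changed by 1.13 when CTCF-dRBR replicate 1 was left out, and by 0.87 after removal of the GC trend.

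In the next 4 pairs by size of the rise among those without overlap, those of ZNRD1, MCM3AP, SDCBP2 and UBL7, the log2 fold change of the sense gene was also negative. This follows in part from the choice of pairs by a ratio that rises when the sense count falls. For ZNRD1-AS1 and ZNRD1, the gene of an RNA polymerase I subunit, the log2 ratio was −0.87, −0.40 and −0.06 in CTCF-WT and 1.17, 0.26 and 0.00 in CTCF-dRBR, with the last CTCF-WT and CTCF-dRBR values close together (log2 fold change 0.07 ± 0.16 SE for the antisense and −0.81 ± 0.27 for ZNRD1). The change of their log2 ratio was 0.92, and 0.57 without CTCF-dRBR replicate 1. For MCM3AP-AS1 and MCM3AP, a gene of mRNA export, it was −3.37, −3.27 and −3.28 in CTCF-WT and −2.18, −2.56 and −2.80 in CTCF-dRBR. MCM3AP-AS1 was at 11.3, 11.8 and 11.0 CPM and then 14.8, 13.7 and 12.7 CPM, and MCM3AP was at 117, 114 and 108 CPM and then 67.3, 80.7 and 88.8 CPM, so here the levels of both genes were apart in opposite directions (log2 fold change 0.26 ± 0.13 and −0.51 ± 0.12 SE, adjusted p = 0.226 and 0.122, limma-voom). The change of the log2 ratio of MCM3AP-AS1 to MCM3AP was 0.79, and 0.45 with the GC trend removed.

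SDCBP2-AS1 and SDCBP2 had a change of 0.68, but SDCBP2, the gene of syntenin-2, was near 1 CPM or below, and with the GC trend removed the change was −0.15. UBL7-AS1 and UBL7, a ubiquitin-like protein gene, are the divergent pair shown above, with starts 66 bases apart. Their log2 ratio was −2.32, −2.28 and −2.35 in CTCF-WT and −1.48, −1.93 and −1.93 in CTCF-dRBR. The change was 0.54, and 0.27 with the GC trend removed. UBL7 was at 34.2, 31.6 and 27.3 CPM and then 12.7, 21.8 and 24.9 CPM, while UBL7-AS1 overlapped between the groups (log2 fold change −0.65 ± 0.25 SE for UBL7 and −0.14 ± 0.19 for UBL7-AS1). WT1-AS and WT1 were both higher in all CTCF-dRBR libraries. WT1 was at 11.0, 11.8 and 11.8 CPM and then 13.6, 13.9 and 13.8 CPM (log2 fold change 0.26 ± 0.12 SE, adjusted p = 0.214, limma-voom), and the log2 ratio was −0.77, −0.83 and −1.09 and then −0.38, −0.52 and −0.41, a change of 0.46.

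The pairs of KTN1, ZSCAN16, UBA6, C1RL and TRAF3IP2 had the largest falls of the ratio in CTCF-dRBR among those without overlap. In these pairs the log2 fold change of the sense gene was positive. That sign follows in part from the choice of pairs by a ratio that falls when the sense count rises. KTN1-AS1 and KTN1, the gene of the kinesin anchor kinectin, had the largest fall. Their log2 ratio was −6.42, −6.41 and −6.78 in CTCF-WT and −7.74, −7.18 and −7.01 in CTCF-dRBR. KTN1-AS1 was at 3.28, 3.35 and 3.21 CPM and then 2.98, 2.68 and 2.66 CPM (log2 fold change −0.25 ± 0.15 SE, and 0.15 in limma-trend on log2(TPM + 1)), and KTN1 had a log2 fold change of 0.53 ± 0.24 (SE). In limma-trend on log2(TPM + 1) the median gene was at 0.40. For ZSCAN16-AS1 and ZSCAN16, a zinc finger gene, the log2 ratio was −0.77, −0.72 and −1.09 and then −1.72, −1.65 and −1.33. UBA6-AS1 and UBA6, the divergent pair of a ubiquitin-activating enzyme with starts 54 bases apart, had −3.21, −3.32 and −3.38 and then −4.27, −3.69 and −3.42, the nearest values being close to each other. Their change was −0.49, and −0.25 without CTCF-dRBR replicate 1. UBA6-AS1 itself was between 13.7 and 15.7 CPM throughout, and UBA6 had a log2 fold change of 0.44 ± 0.18 (SE).

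C1RL-AS1 and C1RL, a complement-like protease gene, had log2 ratios of −0.29, −0.46 and −0.40 and then −0.76, −0.78 and −0.88. TRAF3IP2-AS1 and TRAF3IP2, an adaptor gene of interleukin-17 signaling, had −2.27, −2.40 and −2.72 and then −2.85, −2.90 and −2.89. TRAF3IP2 was at 38.9, 38.8 and 40.2 CPM in CTCF-WT and 59.1, 56.4 and 59.4 CPM in CTCF-dRBR, a separation far larger than the spread within either group, although its adjusted p was 0.0959 (log2 fold change 0.57 ± 0.09 SE, limma-voom). Its antisense transcript starts 256 bases from REV3L, a DNA polymerase gene, which was at 121, 130 and 137 CPM and then 226, 175 and 150 CPM (log2 fold change 0.48 ± 0.16 SE).

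**Figure D5:**
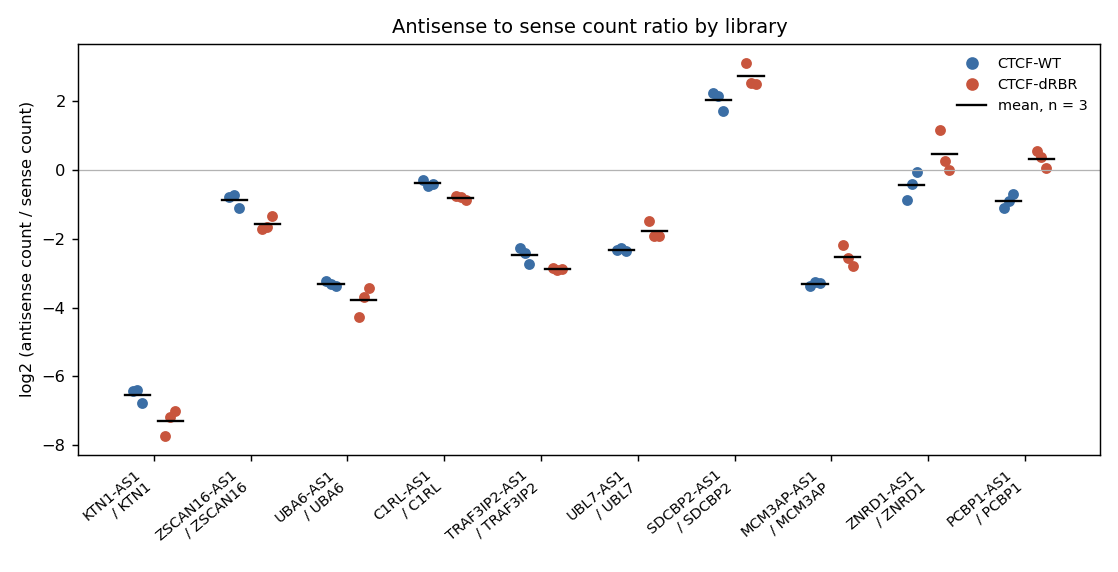
Log2 ratio of antisense to sense count (0.5 added to both) in each library for the 5 pairs with the largest change in each direction among those without overlap, 1 point per library (blue CTCF-WT, red CTCF-dRBR) and group means as bars (n = 3). The pairs are ordered from KTN1-AS1 and KTN1 (−0.77) to PCBP1-AS1 and PCBP1 (1.24).

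The machinery that acts on antisense RNA was read from a pair of gene lists. Of 26 genes of the nuclear exosome and its adaptors, 26 were tested and 0 passed an adjusted p of 0.05 in limma-voom, with 1 higher and 4 lower at an unadjusted p under 0.05 and a median log2 fold change of 0.04. EXOSC5, an exosome core subunit, was at 32.1, 29.9 and 19.5 CPM in CTCF-WT and 5.85, 11.0 and 16.8 CPM in CTCF-dRBR (log2 fold change −1.33 ± 0.39 SE, adjusted p = 0.146, limma-voom), lowest in CTCF-dRBR replicate 1. EXOSC4, another core subunit, had −0.69 ± 0.22, and ZCCHC8, a scaffold of the nuclear exosome targeting complex, had 0.27 ± 0.11 (SE). ZCCHC7, a subunit of the TRAMP polyadenylation complex, had 0.40 ± 0.20 (SE).

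Of 21 genes that sense, edit or process double-stranded RNA, which sense and antisense transcripts can form, 21 were tested and 0 passed, with 3 higher and 2 lower at an unadjusted p under 0.05 and a median of −0.05. IFIH1, the gene of the sensor MDA5, was at 10.4, 11.8 and 13.6 CPM in CTCF-WT and 23.8, 18.2 and 16.7 CPM in CTCF-dRBR (log2 fold change 0.68 ± 0.19 SE, adjusted p = 0.140, limma-voom). TLR3 had 0.55 ± 0.17 and TARBP2, a partner of Dicer, −0.82 ± 0.32 (SE). The shares of both lists at an unadjusted p under 0.05 were below the 25.4% of all genes tested.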

How the data were processed

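Ribosomal RNA-depleted total RNA of 3 CTCF-WT and 3 CTCF-dRBR libraries was sequenced. Per the labels and methods, the authors trimmed reads with Trim Galore 0.6.3, aligned them to hg19 with STAR 2.7.9a and estimated genes of Gencode v19 with RSEM 1.3.1. The authors deposited expected counts and TPM. How counting used the strand is not given in the sources used here.

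Expected counts were fitted with limma-voom 3.58.1 (R 4.3.3, TMM, genes under 1 CPM in all libraries removed, Benjamini-Hochberg over 14044 genes). edgeR 4.0.16 (quasi-likelihood) and DESeq2 1.42.0 used rounded counts. Ratios added 0.5 to both counts. Limma-trend on TPM used log2(TPM + 1) and log2(TPM + 0.1). The GC trend was a loess fit per library (span 0.5, degree 2). Scripts were tested on simulated data. Positions were read from Gencode genes lifted over to GRCh37, promoters from RefSeq on GRCh38.p14.

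Members and lists were chosen with earlier results of these data known. Named were the 8 most abundant members, the 5 smallest p in each direction, the well-known members of a list, the lowest member by level, and the 5 pairs per direction with the largest ratio change among those without overlap. A few genes that these rules name are not reported here. Without separate cultures named, precision reflects these libraries only, of 30034505 to 53166735 counts.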

Additional observations from a re-analysis of the deposited data

How the results depend on the processing

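The number of the 151 transcripts past an adjusted p of 0.05 was 0 in limma-voom, in edgeR and under each other normalization or filter tried. It was 9 by DESeq2 (11.5% of all genes), 86 with sample quality weights (68.2%) and 4 with the GC trend removed (9.24%). On log2(TPM + 1) it was 4 (5.93% of all genes) and on log2(TPM + 0.1) it was 5 (5.41%). Leaving out 1 library gave 0 to 1 (1 without CTCF-dRBR replicate 1, where 3.90% of all genes passed). Combinations chosen after seeing the data, without CTCF-dRBR replicate 1, gave 15 with the GC trend removed (23.6% of all genes), 1 with edgeR (4.09%) and 10 with DESeq2 (17.4%). The same shares of all genes are the background of the counts that follow, setting by setting. For the 46 sense genes the counts were 5 by DESeq2, 27 with quality weights, 4 with the GC trend removed, 1 on either TPM scale, 0 to 3 leaving out 1 library (3 without CTCF-dRBR replicate 1), and 12, 4 and 7 in the same combinations. For the RNA decay list they were 1, 16 and 1 (DESeq2, quality weights, GC trend removed), 0 to 0 leaving out 1 library, and 3 and 2 without CTCF-dRBR replicate 1 with the GC trend removed or DESeq2. For the double-stranded RNA list they were 4, 15 and 2, then 2 on log2(TPM + 0.1), 0 to 1 leaving out 1 library (1 without CTCF-dRBR replicate 1), and 7 and 6 in those combinations. The cause of these differences was not tested.

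The median log2 fold change of the 151 was 0.15 without normalization beyond library size, −0.0035 with no filter (all genes 0.19), −0.00042 with the GC trend removed, 0.010 with it removed and without CTCF-dRBR replicate 1, and 0.40 and 0.53 on log2(TPM + 1) and log2(TPM + 0.1), where all genes had 0.40 and 0.54. That of the sense genes was 0.59 and 0.68 there. Leaving out 1 library, the former ran from 0.05 to 0.10 and the latter from 0.03 to 0.11. Transcripts without overlap numbered 37 in the deposited TPM (24.5%, against 15.3% of all genes), and 65 to 90 leaving out 1 library (43.0% to 59.6%, against 39.8% to 64.8% of all genes). With the GC trend removed they numbered 49 of 144 (34.0%, against 39.4% of all genes). Pairs without overlap of the ratio numbered 21 to 28 leaving out 1 library (45.7% to 60.9%, against 36.4% to 48.5% of the 99 pairs).

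The sign turned on log2(TPM + 1) and log2(TPM + 0.1) for TUG1 (0.34 and 0.35), PINK1-AS (0.12 and 0.18), KTN1-AS1 (0.15 and 0.26), CD27-AS1 (0.0076 and 0.0085), PCBP1-AS1 (0.49 and 0.51), UBL7-AS1 (0.27 and 0.34), ZSCAN16-AS1 (0.26 and 0.36), UBA6-AS1 (0.34 and 0.42) and C1RL-AS1 (0.13 and 0.19), and on log2(TPM + 1) for the ratio of THAP9-AS1 to THAP9 (0.016). The median over all genes was 0.40 and 0.54 on these scales. Of these transcripts only PCBP1-AS1 on log2(TPM + 1) lay above that median, so the others stayed lower relative to it. With the GC trend removed the sign turned for THAP9-AS1 (−0.029), GS1-251I9.4 (−0.057), SETD5-AS1 (−0.0051), ZNRD1-AS1 (−0.074), SDCBP2-AS1 (−0.031), UBL7-AS1 (0.0030), TRAF3IP2-AS1 (−0.0049) and the ratio of SDCBP2-AS1 to SDCBP2 (−0.15). Without CTCF-dRBR replicate 1 it turned for GS1-251I9.4 (−0.0011, −0.20 with the GC trend removed, −0.0025 in edgeR), HOXA-AS4 (−0.027, −0.051 in edgeR, −0.043 in DESeq2) and, with the GC trend removed, THAP9-AS1 (−0.072) and UBL7-AS1 (0.056). It also turned there for PCBP1-AS1 (0.0089, 0.013 with the GC trend removed, 0.0088 in edgeR, 0.016 in DESeq2), ZNRD1-AS1 (−0.028, −0.11, −0.031 and −0.024) and UBA6-AS1 (0.0056, 0.0057 in edgeR, 0.013 in DESeq2). Elsewhere it turned for PCBP1-AS1 (0.0031 with quality weights, 0.050 with no normalization beyond library size, 0.013 with the upper quartile), UBA6-AS1 (0.040 and 0.0037 under these last settings) and ZNRD1-AS1 (−0.12 with quality weights, −0.0084 with no filter). Leaving out 1 library gave −0.0011 to 0.48 for GS1-251I9.4, −0.027 to 0.33 for HOXA-AS4, −0.073 to 0.0089 for PCBP1-AS1, −0.028 to 0.15 for ZNRD1-AS1 and −0.082 to 0.0056 for UBA6-AS1. Replicate numbers did not pair the libraries, since the correlations of their deviations were −0.31, 0.08 and −0.44. With a replicate block 0 transcripts passed an adjusted p of 0.05 and 7 were at an unadjusted p under 0.05.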
